A study of Mus musculus with 8 samples.

Results

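The genes described here encode the proteasome, its caps and activators, and the factors that assemble it. They were taken as every gene whose symbol begins with Psma, Psmb, Psmc, Psmd, Psme or Psmg, from probe sets annotated to a single gene, and numbered 49 of the 19937 genes on the array. Where a gene had several probe sets, the set with the highest mean over the 8 arrays was used. By role there were 8 alpha and 7 beta genes of the core, 3 immunoproteasome genes, 1 thymoproteasome gene, 6 ATPase and 11 other genes of the cap, 4 activator genes and 7 assembly genes. The remaining 2, Psmc3ip and Psme3ip1, share the symbols but encode proteins named as partners of a subunit.

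RNA came from FoxP3+ regulatory T cells (Tregs) of mice, sorted and then cultured with antibodies to CD3 and CD28 for 16 h. The 4 KO-labelled arrays were made from Bcl6-/- mice, which lack a transcriptional repressor of the zinc finger family, and the 4 WT arrays from wild-type mice. Each group held preparations 1 and 2, each with an array A and an array B, and 100 ng of RNA went into each array. Whether preparations and letters mark separate mice, cultures or extracts is not stated in the labels, so each p-value covers no more than the spread among these samples, and that spread may be technical. The labels give no strain, age, removed part of Bcl6 or number of mice in each preparation.

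The proteasome degrades proteins that carry ubiquitin chains. Its barrel-shaped core has outer rings of alpha subunits, which gate the entrance, and inner rings of beta subunits, a few of which cut the substrate. The cap binds the ubiquitin chain, removes it and threads the protein inward with a ring of ATPases. In lymphocytes and in cells exposed to interferon gamma, the immunoproteasome subunits Psmb8, Psmb9 and Psmb10 can take the places of the cutting subunits Psmb5, Psmb6 and Psmb7, which alters the peptides available to MHC class I molecules.

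Several measures of the arrays are given first. Bcl6, the Y-linked genes and some single markers, among them Foxp3, Ctla4 and Il2ra, separated the groups. Array spread and the averaged marker levels overlapped between them. Taken over every probe set, log2 values had an SD of 1.87 and 1.84 in the KO 1 arrays, 1.65 and 1.61 in the KO 2 arrays and 1.56 to 1.70 in WT. Arrays of a WT preparation were not each other's nearest: the correlation of WT 1A was 0.994 with WT 2B but 0.968 with WT 1B. Bcl6 read 9.0, 8.82, 8.54 and 8.51 log2 in KO 1A, KO 1B, KO 2A and KO 2B, and 7.97, 8.36, 8.33 and 7.86 in WT 1A, WT 1B, WT 2A and WT 2B, above every WT array in each KO-labelled one. This level does not check the labels, since the place of the probes relative to the removed part is not known. The mean of 3 Y-linked genes lay at 4.62 to 4.8 in KO-labelled and at 6.94 to 8.30 in WT arrays, so sex-linked expression and genotype label cannot be told apart in any comparison below. All 8 markers of T cells and Tregs were present, with means of 9.71 to 11.93, and their averaged level was 10.60 to 11.21 in KO-labelled and 9.93 to 10.68 in WT arrays. All 8 had a group difference above 0. Foxp3, Ctla4 and Il2ra were higher in every KO-labelled than in every WT array, as were 6.67% of all genes. Their differences were 0.84, 0.93 and 1.49 log2 (limma adjusted p 0.701, 0.701 and 0.51), and the other markers of this list overlapped. Markers of B cells averaged 6.01 to 6.29 over all arrays and those of myeloid cells 6.19 to 6.46, with the highest gene of each, Cd79b and Cd68, at 7.35 to 8.05 and 7.31 to 8.03. The CD8 T cell markers averaged 7.16 to 7.73, and Cd8a read 6.75 and 7.30 in KO 1 and 7.23 to 8.22 in the other arrays. Of the 4 NK cell markers, Nkg7 alone stood high, at 9.65 and 9.53 in KO 1 against 7.05 to 7.59 in the other arrays, while Ncr1 stayed at 5.0 to 5.30. The part of these measures in the results was not tested. Fits with array spread as a covariate are given below. That spread was taken from the same values and was largest in KO 1, so such fits cannot separate it from a KO 1 difference.

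Proteasome genes read higher in KO-labelled than in WT Tregs in most cases, but none passed the test. Of the 49 genes, 46 had a difference above 0, with a median of 0.72 log2, against a median of -0.06 over all genes and 0.37 over the 5077 genes with a mean of at least 8 log2, a level that 42 of the 49 reached. At an adjusted p under 0.05 (limma with the preparation as a random block, Benjamini-Hochberg over all genes), 0 of the 49 genes were called higher and 0 were called lower. The same test called 0.12% of all genes higher and 0.015% lower. With an unadjusted p below 0.05, 9 of the 49 were higher, or 18.4%, against 5.65% of all genes, and 0 were lower, against 0.542%. Bulk arrays cannot tell fewer cells of a type from less RNA per cell.

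The difference lay mainly in preparation KO 1. The median of the 49 genes was 1.20 log2 above the WT mean in KO 1 and 0.22 in KO 2, where all genes had medians of -0.13 and 0.02 and genes with a mean of at least 8 log2 had 0.71 and 0.05. Both comparisons share the WT arrays. In 46 of the 49 genes both KO 1 arrays lay above the other 6 arrays, or 93.9% against 32.9% of all genes. Both KO 2 arrays lay within the WT range in 29 genes, or 59.2% against 56.3% of all genes, and above every WT array in 6, or 12.2% against 9.54%. Without KO 1 the same test called 4 of the 49 genes higher (Psme2, Psmb9, Psmb2 and Psmb10), or 8.16% against 5.64% of all genes. Without KO 2 it called 46 higher, or 93.9% against 36.3% of all genes, and 1 lower, or 2.04% against 48.5%. The estimated correlation between arrays of a preparation was -0.63 in the fit without KO 1 and -0.64 in that without KO 2, which narrows the errors. Each of these fits has 1 preparation in the KO group, whose arrays A and B are then taken as its replicates. With no block for preparations the fit without KO 1 called 0 of the 49 genes higher, against 0.642% of all genes.

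**Figure D1:**
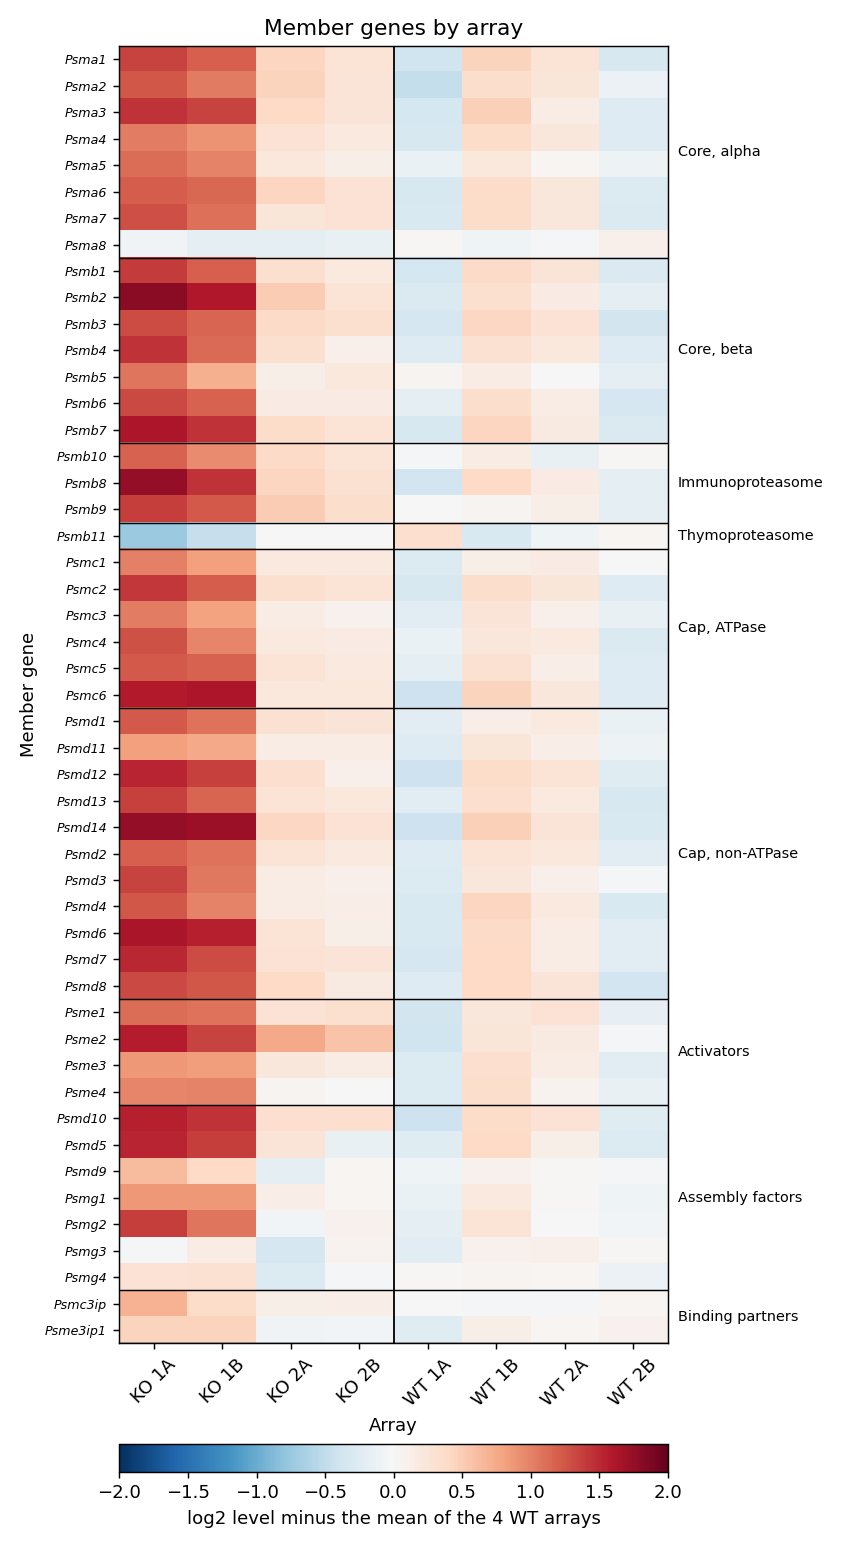
Each row is a gene, grouped by role, and each column an array; colour gives the log2 level minus the mean of the 4 WT arrays. The KO 1 columns are high in nearly all rows except Psma8, Psmb11 and Psmg3, the KO 2 columns lie near the WT columns, and WT 1A and WT 2B are lower than WT 1B and WT 2A in 43 of the 49 rows.

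Most core genes followed this pattern. The 8 alpha genes had a median difference of 0.74 log2 between the groups, 1.16 in KO 1 and 0.29 in KO 2. Psma3, an alpha ring subunit, had the largest. It read 10.82, 10.72, 9.77 and 9.63 log2 in KO 1A, KO 1B, KO 2A and KO 2B, and 9.02, 9.85, 9.52 and 9.11 in WT 1A, WT 1B, WT 2A and WT 2B. Both KO 1 arrays were above all others, and WT 1B was above both KO 2 arrays. Its difference of 0.86 (SE 0.42, n = 4 each) had an adjusted p of 0.701 in limma. The other 2 Psma3 probe sets gave 0.84 and 0.83.

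Psma8, the alpha subunit of the testis, was the exception among core genes. Its level was 6.0, 5.89, 5.88 and 5.92 log2 in KO 1A, KO 1B, KO 2A and KO 2B, and 6.10, 5.99, 6.03 and 6.17 in WT 1A, WT 1B, WT 2A and WT 2B. It was the dimmest gene of the 49 and the only one with a mean under 6 log2. Its groups overlapped, and the difference of -0.15 (SE 0.16; limma adjusted p 0.701) was 0.00 after quantile normalization.

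The 7 beta genes outside the immunoproteasome had a median of 0.78 log2, 1.29 in KO 1 and 0.26 in KO 2. Psmb2, a beta subunit without catalytic activity, had the largest difference of them. Its values were 9.98, 9.78, 8.68 and 8.44 log2 in KO 1A, KO 1B, KO 2A and KO 2B, and 7.88, 8.49, 8.34 and 7.98 in WT 1A, WT 1B, WT 2A and WT 2B. Only KO 2B overlapped with WT, lying just under WT 1B. The difference was 1.05 (SE 0.40, 2.07-fold) with a limma adjusted p of 0.698.

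The 3 cutting subunits of the constitutive core were all highest in KO 1. Psmb7, which cuts after basic residues, read 10.90, 10.72, 9.64 and 9.56 log2 in KO 1A, KO 1B, KO 2A and KO 2B, and 8.96, 9.71, 9.46 and 8.99 in WT 1A, WT 1B, WT 2A and WT 2B. Psmb6, which cuts after acidic residues, read 10.31, 10.17, 9.15 and 9.15 in the KO-labelled arrays, and 8.81, 9.34, 9.14 and 8.65 in WT, in the same order. Psmb5, which cuts after hydrophobic residues and is the main target of the drug bortezomib, read 9.97, 9.61, 9.01 and 9.11, and 8.95, 9.04, 8.89 and 8.69. In all 3 the KO 2 arrays overlapped with WT. Their differences were 0.93 (SE 0.42), 0.71 (SE 0.38) and 0.53 (SE 0.29), each with a limma adjusted p of 0.701.

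**Figure D2:**
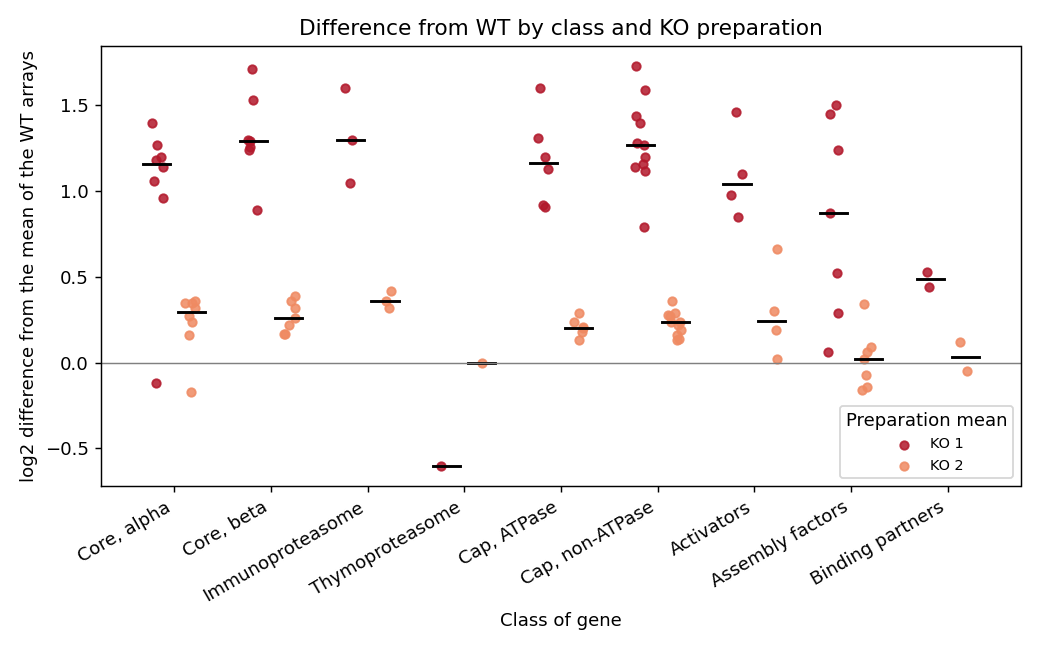
Points are genes, grouped by role on the horizontal axis; the vertical axis gives the mean of the 2 arrays of KO 1 (dark) or KO 2 (light) minus the mean of the 4 WT arrays in log2, and bars mark medians. In every class but the thymoproteasome the KO 1 median is above the KO 2 median, for example 1.30 against 0.36 for the immunoproteasome genes.

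The 3 immunoproteasome genes had a median difference of 0.86 log2, 1.30 in KO 1 and 0.36 in KO 2, and all 3 had an unadjusted p under 0.05. In Psmb9 and Psmb10, but not in Psmb8, every KO-labelled array was above every WT array. In all, 6 of the 49 genes were separated in this way, or 12.2% against 6.67% of all genes, and 0 in the opposite direction, against 2.11%. The others, named after their values were seen, were Psmc1 and Psmd1 of the cap, the activator gene Psme2 and Psmc3ip. After quantile normalization 14 of the 49 were separated, or 28.6% against 7.36% of all genes, and these included all 3 immunoproteasome genes.

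Psmb9 lies in the MHC class II region beside Tap1 and takes the place of Psmb6. It read 10.37, 10.22, 9.50 and 9.34 log2 in KO 1A, KO 1B, KO 2A and KO 2B, and 9.0, 9.05, 9.11 and 8.81 in WT 1A, WT 1B, WT 2A and WT 2B. The WT arrays were close together, within 0.30 log2, and KO 2 lay between WT and KO 1. The difference was 0.86 (SE 0.31, 1.82-fold), with a limma adjusted p of 0.617. Psmb10, which takes the place of Psmb7, read 9.44, 9.20, 8.64 and 8.53, and 8.24, 8.41, 8.12 and 8.28, in the same order. Its groups did not overlap either, and its difference was 0.69 (SE 0.28; limma adjusted p 0.701). Psmb8, which takes the place of Psmb5, read 10.72, 10.40, 9.39 and 9.26, and 8.58, 9.36, 9.12 and 8.78. Here WT 1B lay between the KO 2 arrays, and the difference was 0.98 (SE 0.42; limma adjusted p 0.701).

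Each immunoproteasome gene was set against its counterpart within each array, where a shared shift of the array has less part. The log2 difference between Psmb8 and Psmb5 was 0.75, 0.79, 0.38 and 0.15 in KO 1A, KO 1B, KO 2A and KO 2B, and -0.37, 0.32, 0.23 and 0.09 in WT 1A, WT 1B, WT 2A and WT 2B. The groups overlapped, and KO exceeded WT by 0.45 (exact permutation test, two-sided, n = 4 each, p = 0.114, 0.343 after adjustment over 3 pairs). For Psmb9 over Psmb6 the KO mean exceeded WT by 0.15, 0.05 in KO 1 and 0.26 in KO 2 (exact permutation p = 0.343). For Psmb10 over Psmb7 it was -0.24, -0.48 in KO 1 and 0.00 in KO 2 (exact permutation p = 0.343). The smallest p that 4 against 4 arrays can give is 0.0286, but this takes arrays of a preparation as independent. Over preparation means the exact p was 0.333 for Psmb8 over Psmb5 and 0.667 for the other pairs, where 2 against 2 cannot go below 0.333. The pairs thus differed in sign, and none passed the test. These are differences between probe sets, and their 0 has no meaning of equal abundance.

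**Figure D3:**
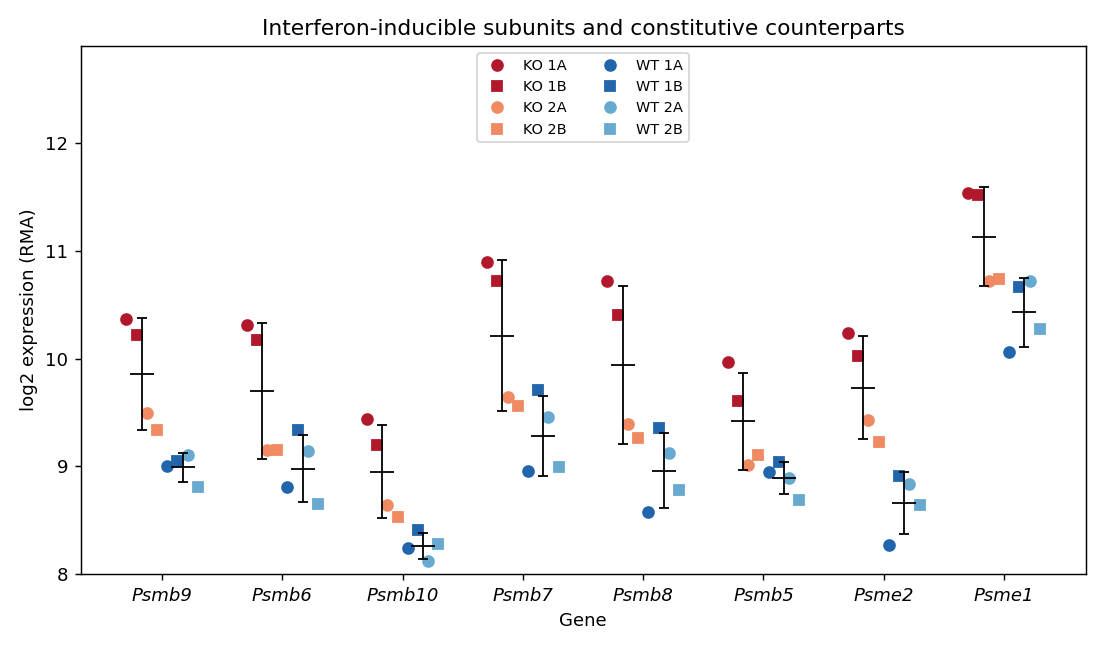
Points give log2 expression in each array for the immunoproteasome genes, their constitutive counterparts and the activator pair Psme2 and Psme1; horizontal bars and whiskers give the mean and SD of the 4 KO-labelled and 4 WT arrays. The KO 1 arrays are highest for all 8 genes, and the KO 2 arrays lie clear of WT for Psmb9, Psmb10 and Psme2.

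Psmb11, the thymoproteasome subunit of cortical thymic epithelium, had the lowest difference of the 49 genes and was 1 of the 3 below 0, with Psma8 and Psmg3. It read 6.54, 6.82, 7.29 and 7.28 log2 in KO 1A, KO 1B, KO 2A and KO 2B, and 7.62, 6.98, 7.20 and 7.32 in WT 1A, WT 1B, WT 2A and WT 2B. The KO 1 arrays were the lowest of all and KO 2 lay within WT. The difference was -0.30 (SE 0.30; limma adjusted p 0.701), and it was 0.06 with array SD as a covariate. Of the other thymic epithelium markers, Foxn1, Krt5 and Prss16 read 6.44 to 6.96, 6.33 to 6.97 and 6.77 to 7.08. Only Epcam, an adhesion molecule of many epithelia, stood higher, at 8.95 and 8.76 in KO 1 and 6.49 to 7.07 elsewhere. Their part in this difference was not tested.

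The 6 ATPases of the cap had a median of 0.69 log2, 1.17 in KO 1 and 0.20 in KO 2. Psmc6 had the largest difference among them, 0.91 (SE 0.45). It read 10.32, 10.34, 8.94 and 8.94 log2 in KO 1A, KO 1B, KO 2A and KO 2B, and 8.31, 9.18, 8.96 and 8.47 in WT 1A, WT 1B, WT 2A and WT 2B. Psmc3 had the smallest, 0.52 (SE 0.32), with values of 10.37, 10.15, 9.50 and 9.44, and 9.13, 9.61, 9.45 and 9.20. In both genes KO 2 lay within the WT range, and both had a limma adjusted p of 0.701.

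The 11 other cap genes had a median of 0.76, 1.27 in KO 1 and 0.24 in KO 2. Psmd14, the enzyme that removes ubiquitin chains at the cap, read 10.90, 10.86, 9.57 and 9.44 log2 in KO 1A, KO 1B, KO 2A and KO 2B, and 8.73, 9.63, 9.40 and 8.84 in WT 1A, WT 1B, WT 2A and WT 2B. Its difference of 1.04 (SE 0.47, 2.06-fold) was the largest of the cap. Psmd11, a scaffold subunit of the lid, had the smallest at 0.48 (SE 0.31), with values of 10.54, 10.47, 9.87 and 9.87, and 9.45, 9.95, 9.84 and 9.62. KO 2 lay within the WT range in both, and both had a limma adjusted p of 0.701.

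Among the activators, Psme2 had the smallest p of all 49 genes. Psme1 and Psme2 encode the partners of an interferon-inducible ring that opens the core without ATP. Psme2 read 10.24, 10.02, 9.43 and 9.23 log2 in KO 1A, KO 1B, KO 2A and KO 2B, and 8.27, 8.91, 8.84 and 8.64 in WT 1A, WT 1B, WT 2A and WT 2B. No KO-labelled array was as low as any WT array, and the KO 2 difference of 0.66 was the largest of the 49. The group difference was 1.06 (SE 0.35, 2.09-fold) with a limma adjusted p of 0.556. A probe set shared by Psme2 and its copy Psme2b gave 1.08, so reads of the copy could not be separated there.

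Psme1 had a KO 2 difference of 0.30, and whether it differs from that of Psme2 was not tested. It read 11.54, 11.52, 10.72 and 10.74 log2 in KO 1A, KO 1B, KO 2A and KO 2B, and 10.06, 10.66, 10.72 and 10.27 in WT 1A, WT 1B, WT 2A and WT 2B. Psme3, which forms a nuclear ring, read 10.24, 10.20, 9.60 and 9.51, and 9.09, 9.71, 9.52 and 9.15. Psme4, a large single-chain activator, read 9.19, 9.21, 8.27 and 8.21, and 7.95, 8.57, 8.28 and 8.07. In all 3 KO 2 overlapped with WT, with KO 2 differences of 0.19 for Psme3 and 0.02 for Psme4. Their group differences were 0.70 (SE 0.37), 0.52 (SE 0.34) and 0.50 (SE 0.34), each with a limma adjusted p of 0.701, and that of Psme4 was -0.04 with array SD as a covariate.

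Assembly genes had the lowest median of the larger classes, 0.48 log2, with 0.87 in KO 1 and 0.02 in KO 2. Psmd10, or gankyrin, a chaperone of the cap's ATPase ring, read 9.92, 9.81, 8.71 and 8.70 in KO 1A, KO 1B, KO 2A and KO 2B, and 7.96, 8.73, 8.66 and 8.12 in WT 1A, WT 1B, WT 2A and WT 2B. Psmg3, a chaperone of the core's alpha ring, read 7.09, 7.28, 6.79 and 7.20, and 6.92, 7.22, 7.23 and 7.15. The groups overlapped in both, with differences of 0.92 (SE 0.42; limma adjusted p 0.701) and -0.04 (SE 0.25; limma adjusted p 0.934).

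Of the genes that only share the symbol, Psmc3ip acts in meiotic recombination. It read 7.36, 7.04, 6.78 and 6.80 log2 in KO 1A, KO 1B, KO 2A and KO 2B, and 6.67, 6.65, 6.65 and 6.70 in WT 1A, WT 1B, WT 2A and WT 2B. Its groups did not overlap, and the difference was 0.32 (SE 0.22; limma adjusted p 0.701). Psme3ip1, named for binding the Psme3 product, read 8.80, 8.80, 8.29 and 8.31, and 8.11, 8.48, 8.40 and 8.44. KO 2 lay within WT, and the difference was 0.19 (SE 0.26; limma adjusted p 0.721).

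**Figure D4:**
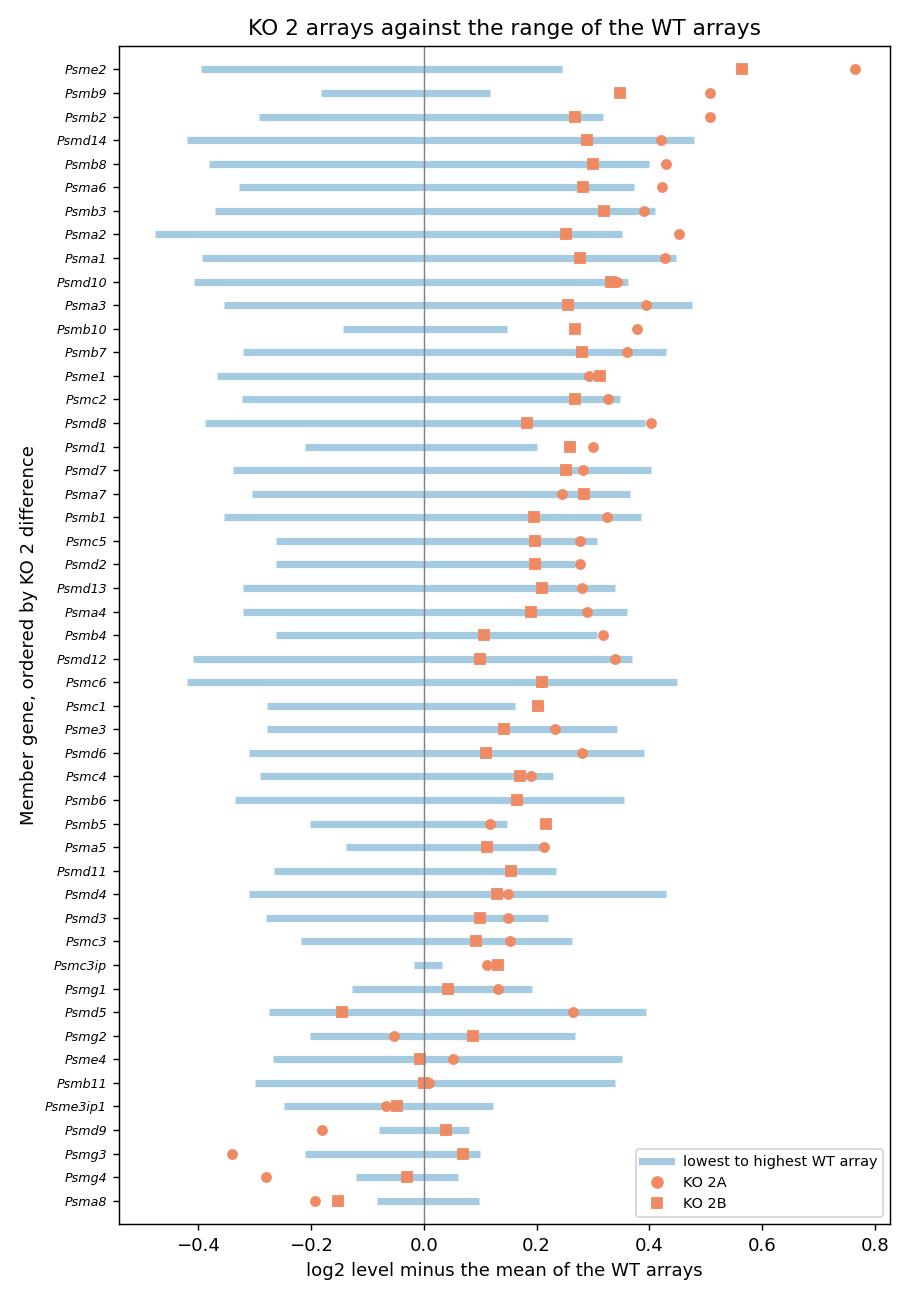
Rows are the 49 genes ordered by the KO 2 difference; bars run from the lowest to the highest WT array and symbols give KO 2A and KO 2B, as log2 level minus the WT mean. Both KO 2 arrays lie above all WT arrays in 6 genes, with Psme2 and Psmb9 farthest out, and within the WT range in 29.

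KO 1 and KO 2 were then compared directly, with the spread between arrays A and B as the error. Nearly all proteasome genes were higher in KO 1. At an adjusted p under 0.05 (limma with a mean for each preparation), 46 of the 49 were higher, or 93.9%, against 27.7% of all genes. Only Psmb11 was lower, with 31% of all genes lower. Among genes with a mean of at least 8 log2, 65.1% were called higher and all 42 of the 49 that reached this level were.

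The largest of the named differences was Psmc6, 1.39 log2 higher in KO 1 (SE 0.26; limma adjusted p 0.00284). Psmd14 was higher by 1.38 (SE 0.28; limma adjusted p 0.00381), Psmb2 by 1.32 and Psmb8 by 1.24. Psmb9 and Psmb10 were higher by 0.88 and 0.73, Psme2 and Psme1 each by 0.80, and the KO 1 minus KO 2 difference of Psmb11 was -0.61 (SE 0.20; limma adjusted p 0.0234). Psma8 and Psmg3, with 0.05 and 0.19, were not called.

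This count rested on the arrays used and on their scaling. It was 4 without KO 1A, or 8.16% against 3.81% of all genes, and 9 without KO 2B, or 18.4% against 8.22%. It was 29 without KO 2A, or 59.2% against 14.7%, and 35 without KO 1B, or 71.4% against 18.4%. After quantile normalization, which gives all arrays the same spread, 23 were higher, or 46.9% against 13.5% of all genes, and 0 lower, against 5.24%. Psmb11 was then no longer called. The quantile medians of the 49 genes over WT were 0.73 in KO 1 and 0.16 in KO 2. As deposited, the median KO 1 minus KO 2 difference of the 49 genes was 0.92 log2. It was 0.84, 0.96, 0.96 and 0.86 without KO 1A, KO 1B, KO 2A and KO 2B. Leaving out an array thus changed the count more than the difference, and each such fit leaves 1 array in a preparation.

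The level of proteasome genes ran with the spread of the array in WT as well. Their median minus the WT mean was 1.29, 1.09, 0.28 and 0.20 log2 in KO 1A, KO 1B, KO 2A and KO 2B, and -0.27, 0.32, 0.16 and -0.21 in WT 1A, WT 1B, WT 2A and WT 2B. WT 1A and WT 2B were both below WT 1B and WT 2A in 43 of the 49 genes, or 87.8% against 29.3% of all genes. This split of WT crossed the preparation numbers. Array SD comes from the same expression values, so a fit with it as a covariate may also take out a difference between the groups. With array SD as a covariate, the median group difference of the 49 genes was 0.16 log2, and 9 genes, or 18.4%, were called higher: Psma3, Psma6, Psmb2, Psmb7, Psmb8, Psmb9, Psmb10, Psmd14 and Psme2. The same fit called 8.02% of all genes higher, and its correlation between arrays of a preparation was -0.37. With no block for preparations it called Psme2 (0.59 log2; limma adjusted p 0.0043) and Psmb9 (0.43; limma adjusted p 0.0444), or 4.08% of the 49 against 3.31% of all genes.

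**Figure D5:**
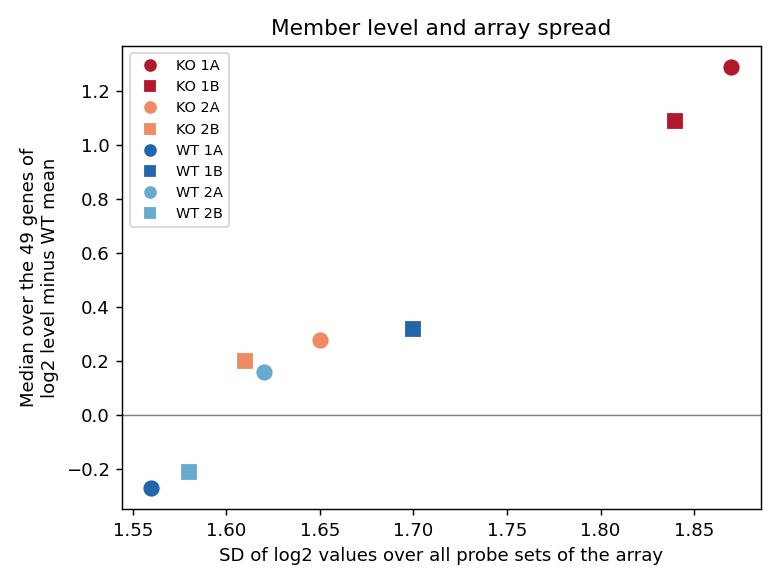
Each point is an array; the horizontal axis gives the SD of log2 values over all its probe sets and the vertical axis the median over the 49 genes of the log2 level minus the WT mean. The KO 1 arrays lie at the upper right, with SDs of 1.87 and 1.84, and WT 1A and WT 2B at the lower left, with 1.56 and 1.58.

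Genes that work with the proteasome, and those of another complex, the chaperonin CCT, were described from lists. In each list 0 genes passed the test in either direction. Not every listed symbol was among the genes tested. Matches were 15 of 21 for partners, 4 of 10 for ubiquitin, 7 of 9 for regulators and 9 of 12 for antigen processing. The 15 partner genes, which encode loosely bound cap proteins and maturation factors, had a median of 0.57 log2, 1.07 in KO 1 and 0.09 in KO 2. Pomp, the maturation factor of the core, differed by 1.08 and Uchl5, a deubiquitinase of the cap, by 0.98 (limma adjusted p 0.701 for both). The 4 matched genes of the ubiquitin list, Nploc4, Uba6, Ufd1 and Vcp, had a median of 0.64, 1.06 in KO 1 and 0.28 in KO 2. Uba6, an activating enzyme of ubiquitin, differed by 1.04 and Nploc4, a cofactor of the segregase Vcp, by 0.67. The 8 subunits of the chaperonin CCT, which folds actin and tubulin, had a median of 0.69, 1.13 in KO 1 and 0.25 in KO 2, with Cct6a at 1.00 and Tcp1 at 0.80. These medians were close to the 0.72, 1.20 and 0.22 of the 49 proteasome genes.

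The 7 regulators of proteasome gene transcription had a smaller median, 0.20 log2, 0.40 in KO 1 and 0.05 in KO 2. Ngly1, which processes the factor Nfe2l1, differed by 0.35, and the protease gene Nrd1 by 0.37. Nfe2l1, which raises proteasome genes when the proteasome is inhibited, differed by 0.23. The 9 antigen processing genes had a median of 0.74, 1.05 in KO 1 and 0.34 in KO 2, and 8 of them had a group difference above 0. Calr, a chaperone of MHC class I loading, differed by 0.77 (limma adjusted p 0.695) and Irf1, a factor of the interferon response, by 1.09 (limma adjusted p 0.701). Calr was 1.05 above the WT mean in KO 1 and 0.48 in KO 2, and Irf1 1.84 and 0.34. Named after their values were seen, Tap1, the peptide transporter chain next to Psmb9, differed by 0.93 and Nlrc5, an activator of MHC class I genes, by -0.29. For Tap1 the difference was 1.51 in KO 1 and 0.36 in KO 2, and for Nlrc5 it was -0.6 and 0.02.

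Upstream sequence was examined because constitutive and inducible subunits are known to be read from different promoters. RefSeq tables of GRCm38.p6 held a window of 250 bases before to 50 bases after the start for 41 of the 49 genes. The core of the antioxidant response element, TGACNNNGC on either strand, which Nfe2l1 binds, was in 6 of 41, or 14.6% against 14% of all genes with a window. The core of the interferon-stimulated response element, GAAANNGAA, was in 7, or 17.1% against 9.76%. These were Psmb3, Psmb4, Psmc2, Psmd4, Psmd9, Psme1 and Psmg4. Of the inducible genes, Psme1 was thus among them, while Psmb8, Psmb9, Psmb10 and Psme2 were not. A gene without a window could not match, and whether Psmb10 had one is not given here. The palindrome TTCNNNGAA of STAT sites, which BCL6 sites resemble, was in 3, or 7.32% against 9.55%. To set inducible beside constitutive subunits, the last 150 bases before the start are shown for Psmb9 and Psmb8, their counterparts and Psme2 (the first listed start), 5′ to 3′ along the gene, with matches in capitals.
Psmb9, GRCm38.p6 chr17:34187331-34187480, minus strand: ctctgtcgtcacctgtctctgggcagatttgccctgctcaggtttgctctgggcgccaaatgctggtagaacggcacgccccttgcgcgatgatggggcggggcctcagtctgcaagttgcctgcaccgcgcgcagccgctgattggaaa
Psmb6, GRCm38.p6 chr11:70525207-70525356, plus strand: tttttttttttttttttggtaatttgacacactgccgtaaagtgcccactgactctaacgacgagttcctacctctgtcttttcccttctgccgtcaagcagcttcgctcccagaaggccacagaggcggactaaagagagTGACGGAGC
Psmb8, GRCm38.p6 chr17:34198045-34198194, plus strand: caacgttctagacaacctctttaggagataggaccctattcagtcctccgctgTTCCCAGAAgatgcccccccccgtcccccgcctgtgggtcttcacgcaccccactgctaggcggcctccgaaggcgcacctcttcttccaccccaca
Psmb5, GRCm38.p6 chr14:54617996-54618145, minus strand: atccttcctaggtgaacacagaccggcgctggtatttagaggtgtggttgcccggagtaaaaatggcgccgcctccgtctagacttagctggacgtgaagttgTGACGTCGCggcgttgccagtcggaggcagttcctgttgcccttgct
Psme2, GRCm38.p6 chr14:55591102-55591251, minus strand: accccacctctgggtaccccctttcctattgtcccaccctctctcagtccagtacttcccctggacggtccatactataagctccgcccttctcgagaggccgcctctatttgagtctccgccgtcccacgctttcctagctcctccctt

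Psmb5 and Psmb6 each held the antioxidant response core, as TGACGTCGC and TGACGGAGC. Psmb8 held the palindrome as TTCCCAGAA, at -97 to -89 from the start. In Psmb9 and Psme2 none of the 3 motifs was in the printed bases. A match is a description of the letters, and binding was not measured here. Psmb5 and Psmb6, which share a motif, differed between the groups by 0.53 and 0.71 log2, and Psmb8 by 0.98. Psmb9 and Psme2, without a match, differed by 0.86 and 1.06. Psmc6, Psmd12, Psmd9 and Psme4, also with the antioxidant response core, differed by 0.91, 0.83, 0.23 and 0.50. Psmd2 and Psmg1, also with the palindrome, differed by 0.69 and 0.48. Whether a motif goes with the size of the difference was not tested.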

How the data were processed

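Values were the authors' deposited log2 expression summaries per probe set, made with Partek and RMA per the submitters' processing notes, with versions and genome build not given in the sources used here. Although RMA usually normalizes between arrays, the deposited arrays differed in spread. All 8 columns were matched to samples and 0 were left unused. No further normalization was applied. Gene names came from the platform annotation: of 28768 probe sets, 21771 had 1 symbol, 1557 several and 5440 none there. All 49 symbols were found in a RefSeq gene table.

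The KO-WT test used limma 3.58.1 under R 4.3.3 (variance trend, preparation as a random block, correlation 0.617), with calls at an adjusted p under 0.05 (Benjamini-Hochberg) over 19937 genes, two-sided. KO 1 and KO 2 were compared with a mean per preparation. Tests were checked on simulated data. Values per array are given for immunoproteasome genes, their counterparts, the activators and the largest and smallest difference of each class, and for the 2 listed genes with the smallest p in each list the difference. The members and lists were chosen with earlier results of these data known. Alternatives were other treatments of preparation and letter, scalings, variance models, filters, probe set choices, and leaving out arrays or preparations. A filter at 8 log2, the array SD as a covariate for medians and with no block, and leaving out KO 1 or KO 2 with no block were added after seeing the data. Preparation numbers are not stated to pair samples; over genes, KO 1 and WT 1 deviated from their group means with a correlation of 0.416, a single comparison.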

Additional observations from a re-analysis of the deposited data

Results flagged for a closer look

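Preparations of the KO group differed from each other. Of the 49 genes, 46 were higher in KO 1 than in KO 2 and 1 was lower, by limma's test between preparation means. The same test called 27.7% of all genes higher and 31% lower. Among the core genes reported by array, the log2 difference of KO 1 minus KO 2 was 1.07 for Psma3, 1.32 for Psmb2, 0.73 for Psmb5, 1.09 for Psmb6 and 1.21 for Psmb7. It was 0.73 for Psmb10, 1.24 for Psmb8 and 0.88 for Psmb9 of the immunoproteasome, and -0.61 for Psmb11 of the thymoproteasome. In the cap it was 0.79 for Psmc3, 1.39 for Psmc6, 0.64 for Psmd11 and 1.38 for Psmd14. The activators had 0.80 for Psme1, 0.80 for Psme2, 0.67 for Psme3 and 0.96 for Psme4. For the assembly gene Psmd10 it was 1.16, and 0.41 for Psmc3ip and 0.50 for Psme3ip1. Of 98 groups of 4 arrays examined, none had an array far from the other 3 by Dixon's test, which flags about 1 group in 20 by chance. The test looks for a single array, so a pair of arrays standing apart together, as in KO 1, goes unflagged. It gives no check on that shift.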

How the results depend on the processing

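The group comparison called 0 of the 49 genes higher. With the preparation number as a fixed replicate block it called 3 (Psme2, Psmb9 and Psmb10, limma adjusted p 0.0315, 0.0383 and 0.0498), or 6.12% against 3.11% of all genes. It called 9 with array SD as a covariate (8.02% of all genes), 2 with that and no random block (3.31%), and 4 without preparation KO 1 (5.64%). Without KO 2 it called 46 higher and 1 lower (36.3% and 48.5% of all genes), or 45 and 1 with no random block (30.1% and 37%). Leaving out each array in turn gave 0. The counts of 46 higher and 1 lower in KO 1 than in KO 2 became 23 and 0 after quantile normalization. The lower count was 0 also after median centring and with a common SD. It was 0 among genes of at least 8 log2, where Psmb11, with a mean of 7.13, was not tested. Without each array in turn they were 4 to 46 and 0 to 1. With array SD as a covariate the medians were 0.16 for all 49 genes, 0.21 and 0.18 for core alpha and beta, 0.30 for the immunoproteasome, 0.15 and 0.17 for ATPase and other cap genes, 0.18 for activators and -0.03 for assembly genes. Without KO 1 they were 0.22, 0.29 and 0.26, 0.36, 0.20 and 0.24, with 0.02 for assembly genes, and without KO 2 they were 1.20, 1.29 for core beta, 1.30, 1.17, 1.27, 1.04 and 0.87. The cause of these changes was not tested. The number of arrays limits every value.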
